A study of Mus musculus with 12 samples.

Results

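The microRNAs (miRNAs) described here are the miR-15/16 superfamily, with miR-103 and miR-107, in microglial exosomes, the small membrane vesicles that cells release, from mice with repetitive mild traumatic brain injury (rmTBI). They were chosen by name, and all 8 names listed (mmu-miR-15a-5p, mmu-miR-15b-5p, mmu-miR-16-5p, mmu-miR-195a-5p, mmu-miR-497a-5p, mmu-miR-322-5p, mmu-miR-103-3p, and mmu-miR-107-3p, where mmu stands for mouse and is left off below) were found among the 1881 mouse miRNAs of the array. Exosomes were prepared from the mixed cerebral cortex and hippocampus of male C57BL/6 mice aged 12 weeks. They were captured with an antibody to CD11b, a surface protein of microglia and other myeloid cells. Injured mice received 4 closed-head impacts at intervals of 48 h and were sampled at 3, 14, or 42 days post-injury (DPI), and sham mice were not struck. Each of the 4 groups has 3 single-color Agilent arrays, 12 in all; the labels do not say whether the arrays of a group came from separate mice, so p-values measure the spread between arrays, which may be technical.

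A miRNA finds its target transcripts mainly through its seed, bases 2 to 8 from the 5′ end, and miRNAs with the same seed can repress overlapping sets of transcripts. The miR-15/16 group is known for restraining cyclins and other cell cycle genes and the survival factor BCL2. miR-103 and miR-107 are known for acting on DICER1, on caveolin, and, in brain, on transcripts linked to neurodegeneration. Mature sequences from RefSeq (GRCm38.p6) are shown for all 8 members because the seed, in capitals, defines the family, with each sequence written 5′ to 3′.

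miR-15a-5p: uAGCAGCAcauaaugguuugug
miR-15b-5p: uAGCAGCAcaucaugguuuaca
miR-16-5p: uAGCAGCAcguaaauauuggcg
miR-195a-5p: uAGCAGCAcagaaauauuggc
miR-497a-5p: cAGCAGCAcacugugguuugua
miR-322-5p: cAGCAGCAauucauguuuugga
miR-103-3p: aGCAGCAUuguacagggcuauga
miR-107-3p: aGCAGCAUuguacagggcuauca

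The first 6 share the seed AGCAGCA, and miR-103-3p and miR-107-3p share GCAGCAU, which is the same run of bases moved by 1 position. Outside the seed the closest members are hard to tell apart by sequence. Counting positions from 1 at the 5′ end, miR-103-3p and miR-107-3p differ by the single substitution G22C. Over the 21 bases they have in common, miR-16-5p and miR-195a-5p differ by G10A and U11G. miR-15a-5p and miR-15b-5p differ at 4 of 22 bases (A12C, G20A, U21C, and G22A). How far the probes of such close members share signal was not tested, and their values are therefore uncertain as separate readings.

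Several members lie in pairs on the genome. miR-15a-5p (chr14:61632075-61632096, minus strand) has a copy of miR-16-5p beside it (chr14:61631936-61631957), both inside the span of the long noncoding RNA Dleu2. miR-15b-5p (chr3:69009775-69009796, plus strand) lies next to the other copy of miR-16-5p (chr3:69009918-69009939), both inside Smc4, a gene for a condensin subunit. miR-497a-5p (chr11:70234730-70234751) and miR-195a-5p (chr11:70235062-70235082) lie on the plus strand with 241 bases between their hairpins, in no other annotated gene. miR-322-5p (chrX:53054306-53054327, minus strand) lies within C430049B03Rik, a long noncoding RNA, and 200 bases from the hairpin of miR-503. The copies of miR-103-3p lie in Pank3 (chr11:35782447-35782469) and Pank2 (chr2:131288103-131288125), and miR-107-3p lies in Pank1 (chr19:34820700-34820722, minus strand), all genes for pantothenate kinases. An array reads the mature miRNA, so the copies of miR-16-5p, and those of miR-103-3p, cannot be told apart.

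The arrays themselves differed in brightness. The 75th percentile of signal, over the 230 miRNAs detected on all arrays, ran from 217 to 348 intensity units on the sham arrays. It was 401 to 619 on those of 3 DPI, 588 to 1173 on those of 14 DPI, and 1385 to 2936 on those of 42 DPI. Each array was divided by this value, and levels below are log2 of the scaled signal, on which 0 is the 75th percentile of the array. The sham arrays and replicate 1 of 3 DPI were on slide 1 and the other 8 arrays on slide 2, so slide and group cannot be told apart for 14 and 42 DPI. Detection rose over the whole array, from 243 to 285 miRNAs on the sham arrays to 490 to 579 on those of 42 DPI. Of the 5 miRNAs listed as marks of microglia and myeloid cells, 0 were detected on all 12 arrays. On the sham arrays miR-223-3p was detected on 1 of 3 and the other 4 on none. At 42 DPI limma called 2 of them higher than sham (miR-142a-3p by 0.46, adjusted p = 0.0498, and miR-146a-5p by 0.51, adjusted p = 0.026), while miR-223-3p differed by -0.13 (adjusted p = 0.49). The sham means of the 2 called, -4.91 and -5.04, lay near the floor set for the scaled signal, -5.06. The rise was not particular to this list. At 42 DPI limma called 34.2% of all miRNAs tested. It called higher 2 of the 5 neuronal, 2 of the 3 oligodendrocyte, and 1 of the 4 vessel cell miRNAs listed, and 0 of these lower. Unlike the microglial and myeloid miRNAs, all 5 listed neuronal and all 3 listed oligodendrocyte miRNAs were detected on every array. For the microglial and myeloid list, the log2 of the summed scaled signal lay between -2.45 and -2.23 in sham. At 42 DPI it lay between -2.33 and -2.10. On every array miR-142a-5p and miR-155-5p were at the floor, so part of this sum is set by the floor. The array does not read the CD11b protein used for the capture. The scan position of all 2880 spots of the members lay within 1.56 of the grid of their own array, in the units of the scanner, and 0 lay off it. The 30 spots of miR-124-3p, which is no member, were more than 30 units off the grid of the array in every injury file, 9 in all.

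All 8 members were detected on all 12 arrays, each by 2 probes. Before scaling, every member was brightest on replicate 1 of 42 DPI and dimmest on replicate 1 or 2 of sham. The unscaled signal of miR-16-5p ran from 228 intensity units on sham replicate 1 to 3341 on replicate 1 of 42 DPI, a 14.6-fold range. After scaling, its range over the 12 arrays was 1.77-fold. Over the 8 members the range was 11.7- to 15.8-fold before scaling and 1.73- to 2.21-fold after it. Their unscaled signal moved with the brightness of the array, and the scaled values describe their place within the signal of each array, not their amount per exosome.

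**Figure D1:**
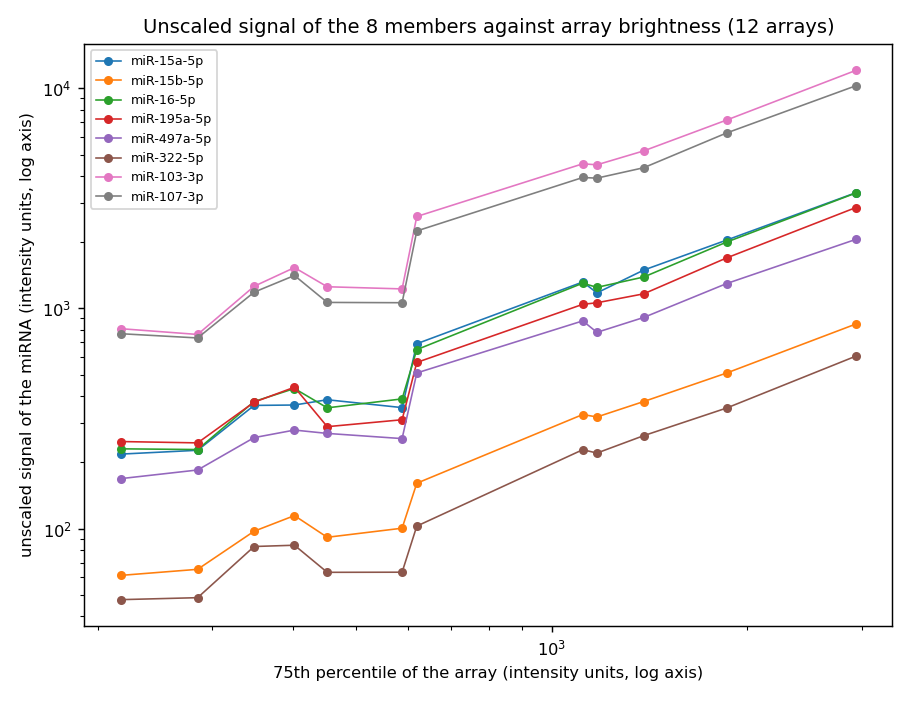
The unscaled signal of each member (vertical log axis, intensity units) is set against the 75th percentile of the same array (horizontal log axis, intensity units), with 1 point per array and a line joining the 12 points of a member. All 8 lines stand higher at the brightest array of 42 DPI, at 2936, than at the dimmest sham array, at 217. The climb is not even. All 8 members read lower on replicate 1 of 14 DPI, at 588, than on replicate 1 of 3 DPI, at 401.

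Among the miR-15/16 group, miR-15a-5p had log2 scaled signals of -0.33, 0.00, and 0.06 on the sham arrays, -0.14, 0.16, and -0.23 at 3 DPI, -0.73, 0.00, and 0.24 at 14 DPI, and 0.19, 0.11, and 0.14 at 42 DPI. The 3 arrays of 42 DPI lay above the 3 sham arrays, by a mean of 0.23 (SE 0.23), while the other groups overlapped sham. Its neighbor miR-16-5p, the most studied member of the family, read -0.32, 0.08, and 0.12 in sham, 0.11, 0.07, and -0.35 at 3 DPI, -0.60, 0.09, and 0.22 at 14 DPI, and 0.19, 0.00, and 0.11 at 42 DPI. All groups overlapped for miR-16-5p. miR-15b-5p read -2.13, -1.83, and -1.84 in sham, -1.81, -1.95, and -2.31 at 3 DPI, -2.55, -1.87, and -1.76 at 14 DPI, and -1.79, -1.88, and -1.87 at 42 DPI, again with all groups overlapping.

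The members of the chromosome 11 pair gave a similar picture. miR-195a-5p read -0.22, 0.19, and 0.11 in sham, 0.13, -0.12, and -0.64 at 3 DPI, -0.91, -0.15, and -0.10 at 14 DPI, and -0.03, -0.25, and -0.13 at 42 DPI. Its mean was highest in sham (0.03 ± 0.22, SD, n = 3) and lowest at 14 DPI (-0.39 ± 0.46), and the arrays of both groups overlapped. miR-497a-5p read -0.63, -0.36, and -0.43 in sham, -0.52, -0.28, and -0.74 at 3 DPI, -1.20, -0.59, and -0.35 at 14 DPI, and -0.51, -0.61, and -0.52 at 42 DPI. The X-linked miR-322-5p, the mouse counterpart of human miR-424, read -2.55, -2.19, and -2.07 in sham, -2.26, -2.59, and -2.83 at 3 DPI, -3.22, -2.41, and -2.29 at 14 DPI, and -2.28, -2.39, and -2.40 at 42 DPI. For both, the sham arrays overlapped those of each injury group.

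For the other seed, miR-103-3p read 1.42, 1.90, and 1.86 in sham, 1.93, 2.08, and 1.48 at 3 DPI, 1.06, 1.94, and 2.02 at 14 DPI, and 2.04, 1.91, and 1.95 at 42 DPI. The arrays of 42 DPI lay above those of sham, with the lowest at 1.91 against 1.90 for the highest sham array. miR-107-3p read 1.37, 1.82, and 1.77 in sham, 1.81, 1.86, and 1.24 at 3 DPI, 0.85, 1.74, and 1.82 at 14 DPI, and 1.80, 1.65, and 1.75 at 42 DPI, with all groups overlapping.

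**Figure D2:**
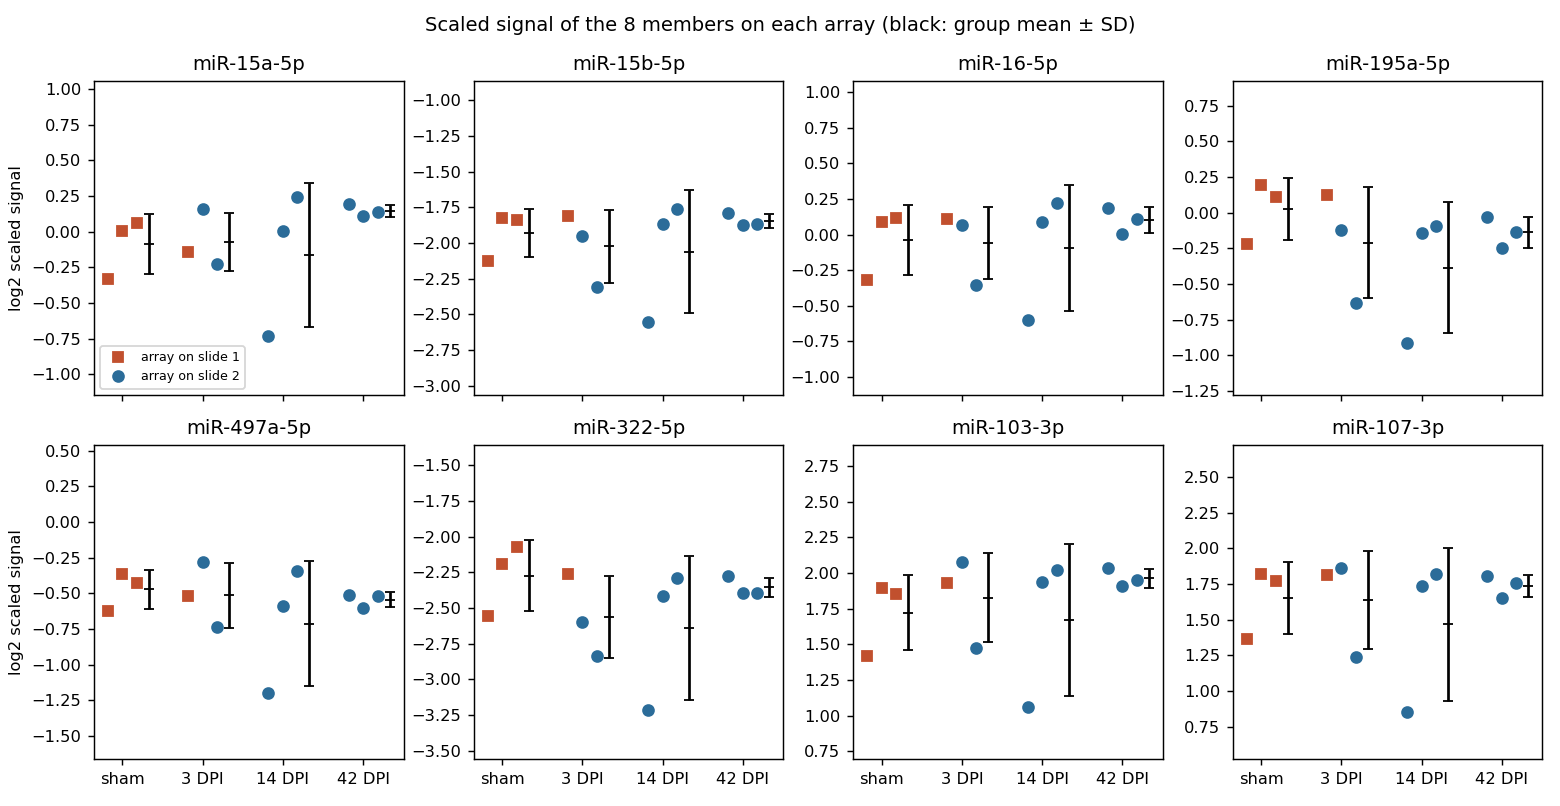
Each panel plots the log2 scaled signal of 1 member on the 12 arrays by group, with squares for arrays on slide 1 and circles for arrays on slide 2; the black mark and bars are the group mean and SD (n = 3), and all vertical axes span the same number of log2 units. Replicate 1 of 14 DPI is the lowest array in all 8 panels, and the arrays of 42 DPI lie close together.

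The 8 members rose and fell together from array to array. Replicate 1 of 14 DPI was the lowest of the 12 arrays for all 8, with a median deviation of -0.71 from their own means. Replicate 3 of 3 DPI and replicate 1 of sham were also low, with median deviations of -0.33 and -0.21. The SD within a group ran from 0.14 to 0.27 in sham and from 0.43 to 0.54 at 14 DPI, but only from 0.04 to 0.11 at 42 DPI. The group mean was lowest at 14 DPI for all 8 members. It was highest at 42 DPI for miR-15a-5p, miR-15b-5p, miR-16-5p, miR-103-3p, and miR-107-3p, and highest in sham for miR-195a-5p, miR-497a-5p, and miR-322-5p. No neighbors in these orders differed by the test below.

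Against sham, limma with Benjamini-Hochberg adjustment over the 486 miRNAs tested called 0 of the 8 members at 3 DPI, 0 at 14 DPI, and 0 at 42 DPI (adjusted p under 0.05), where it called 0.0%, 3.7%, and 34.2% of all miRNAs tested. Those shares of all miRNAs moved when 1 array was left out. The calls at 14 DPI went from 18 to between 1 and 162, the latter without replicate 1 of 14 DPI. Those at 42 DPI fell from 166 to between 46 and 143, whichever array was left out. The members called stayed at 0 throughout. At an unadjusted p under 0.05 the members numbered 0 at each time as well, against 2.26%, 21.8%, and 47.5% of all miRNAs. At 3 DPI the members' log2 differences from sham lay between -0.29 and 0.10 (median -0.03). At 14 DPI they lay between -0.41 and -0.05 (median -0.16), and at 42 DPI between -0.17 and 0.24 (median 0.09). The median over all 486 miRNAs was 0.00, 0.00, and -0.09 at these times. In size, regardless of sign, the members' median difference at 42 DPI was 0.11, against 0.69 over all miRNAs tested and 0.83 over the 230 detected on all arrays. At that time the arrays did not overlap sham for 2 members (miR-15a-5p and miR-103-3p), where they did not overlap for 66.9% of the miRNAs tested. At 3 and at 14 DPI this held for 0 members, against 2.06% and 14.4%.

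The 95% intervals show how large a change remains compatible with these arrays under this scaling and this fit, which has no term for slide. For all 8 members, and at all 3 times, the interval lay inside a 2-fold change in either direction. This does not hold for every scaling. With the 75th percentile taken over all miRNAs, the highest difference itself at 42 DPI was 1.02, past 2-fold. The widest reach downward was that of miR-195a-5p at 14 DPI, with a log2 difference of -0.41 (SE 0.25, 95% interval -0.99 to 0.17, adjusted p = 0.39). The widest reach upward was that of miR-103-3p at 42 DPI, with 0.24 (SE 0.27, 95% interval -0.36 to 0.84, adjusted p = 0.52). For miR-16-5p at 42 DPI the difference was 0.14 (SE 0.23, 95% interval -0.37 to 0.65, adjusted p = 0.68). These intervals are not limits of detection, and changes inside them could have been missed. They also depend on the fit, which shares 1 spread over the 4 groups. With only the groups compared, the lowest limma adjusted p of a member at 42 DPI was 0.16, against 0.46 in the shared fit.

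**Figure D3:**
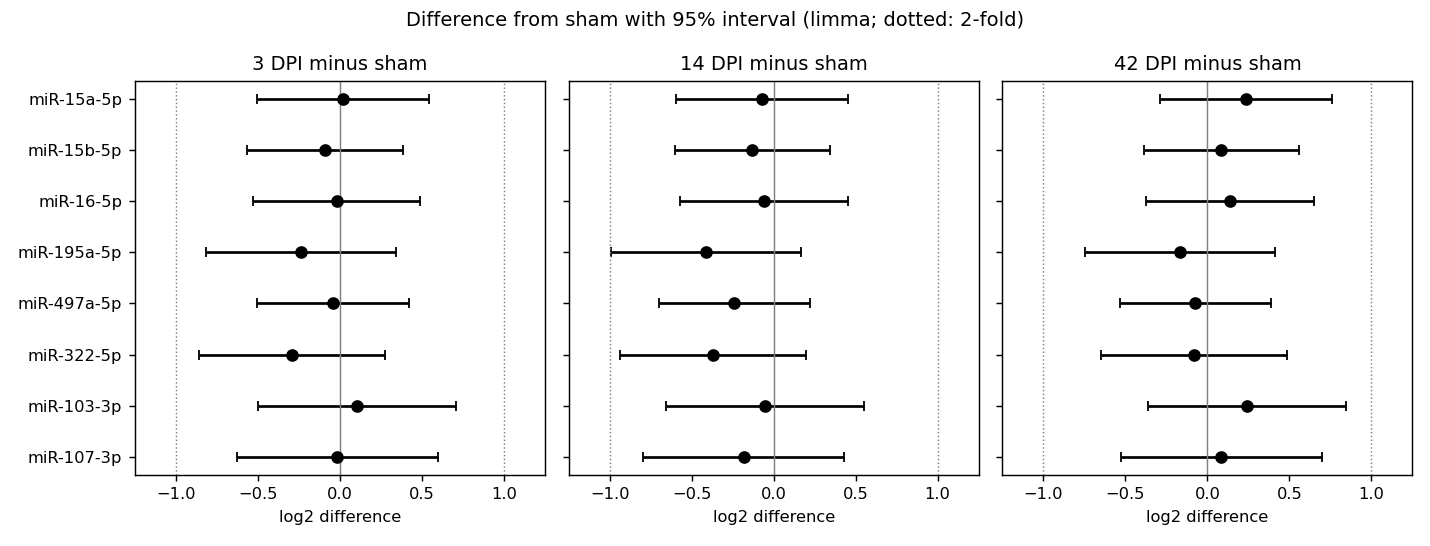
Points are the log2 difference of each member (rows) from sham at 3, 14, and 42 DPI (panels), and bars are the 95% interval of the limma fit over 12 arrays; dotted lines mark a 2-fold change. Every interval crosses 0 and stays within the dotted lines, and the one that reaches farthest is that of miR-195a-5p at 14 DPI, down to -0.99.

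Time points were also compared with each other. The limma fit called 0 of the 8 members for 42 DPI against 14 DPI, for 42 DPI against 3 DPI, and for 14 DPI against 3 DPI, and it called 0.0%, 38.3%, and 0.617% of all miRNAs tested, respectively. For 42 DPI against 3 DPI the 186 calls fell to 0 without replicate 1 or replicate 3 of 42 DPI and within slide 2, and for 14 DPI against 3 DPI the 3 calls became 131 without replicate 1 of 14 DPI. From 14 to 42 DPI the differences were positive for all 8 members, from 0.17 to 0.31, with adjusted p from 0.57 to 0.63. They rested on replicate 1 of 14 DPI. Without that array they ran from -0.08 to 0.02, and the differences of 14 DPI from sham, all negative with it, ran from -0.15 to 0.26.

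This result holds for signal relative to the 75th percentile of the array. Without any scaling between arrays, limma called all 8 members higher than sham at 14 DPI, by 1.31 to 1.67, and at 42 DPI, by 2.65 to 3.06, where the median of all miRNAs was also shifted by 1.30 and 1.90 and limma called 65.6% and 84.0% of them. It also called all 8 for 42 DPI against 14 DPI and against 3 DPI, with 34.2% and 62.3% of all miRNAs. With the 75th percentile taken over all miRNAs, the members stood 0.61 to 1.02 above sham at 42 DPI, with adjusted p from 0.072 to 0.28 and the median of all miRNAs shifted by 0.46. The other correction that called members was normexp background correction, which shifted the median of all miRNAs by -1.67 at 42 DPI. Under it miR-15b-5p and miR-322-5p were called lower, by -0.49 and -0.72 at 14 DPI and by -0.54 and -0.83 at 42 DPI, where 76.1% and 88.3% of all miRNAs were called. For 42 DPI against 3 DPI it called 1 member, with 85.2% of all miRNAs. One probe of miR-15b-5p had 26.7%, 40.0%, and 93.3% of its spots well above background on the sham arrays and 100% on the injury arrays, and one of miR-322-5p had 46.7%, 71.4%, and 100% in sham.

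The probes of a member gave like readings for some members and not for others. The difference from sham moved by at most 0.05 between the probes of miR-15a-5p, 0.06 for miR-16-5p, and 0.03 for miR-107-3p. It moved more for miR-15b-5p, whose probe that was dim in sham read 0.42 at 42 DPI and whose other probe read -0.02. For miR-322-5p the probes read 0.07 and -0.17 at 42 DPI, for miR-497a-5p 0.02 and -0.09, for miR-195a-5p 0.00 and -0.22, and for miR-103-3p 0.21 and 0.36. The largest gaps of miR-15b-5p, miR-322-5p, miR-195a-5p, and miR-103-3p at any time were 0.48, 0.23, 0.22, and 0.18, wider than the median size of the members' differences at 42 DPI.

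Because scaling sets the level of all members at once, ratios between members within an array were computed as well, a measure chosen after the values had been seen. There are 28 pairs of the 8 members, and a ratio within an array shows unequal change without saying which member changed. For miR-16-5p over miR-195a-5p, which differ at positions 10 and 11, the log2 ratio, set to a mean of 0 in sham, was -0.03, -0.04, and 0.08 on the sham arrays, 0.05, 0.26, and 0.35 at 3 DPI, 0.38, 0.30, and 0.39 at 14 DPI, and 0.29, 0.32, and 0.31 at 42 DPI. The array of 3 DPI at 0.05 is the one on slide 1. All 8 arrays of slide 2 thus lay above all 4 arrays of slide 1, whatever the group. For miR-103-3p over miR-107-3p, which differ by 1 base, the ratio was -0.02, 0.00, and 0.02 in sham, 0.05, 0.15, and 0.16 at 3 DPI, 0.14, 0.13, and 0.13 at 14 DPI, and 0.16, 0.18, and 0.12 at 42 DPI, with the same split by slide. For this pair the slide 1 array of 3 DPI, at 0.05, was itself above all sham arrays.

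Of the 28 ratios, 9 (32.1%) did not overlap sham at 3 DPI, 13 (46.4%) at 14 DPI, and 22 (78.6%) at 42 DPI, against 6.54%, 27.3%, and 80.1% of the ratios between any pair of the 230 miRNAs detected on all arrays. The share of the members at 42 DPI is close to that background. Between slides, 10 ratios (35.7%) did not overlap, against 6.41% of all ratios. The ratios share members and are not independent. Of these 10, 9 set miR-195a-5p or miR-322-5p against another member, relative to which it was lower on slide 2. The other is miR-103-3p over miR-107-3p. The slides overlapped for miR-195a-5p and for miR-322-5p against miR-497a-5p, for miR-322-5p against miR-107-3p, and for miR-195a-5p against miR-322-5p. The changes were small, at most 0.41 on the log2 scale. An exact permutation test of 3 arrays against 3 (two-sided) cannot go below p = 0.1, which is the value the 42 DPI ratios above reach.

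**Figure D4:**
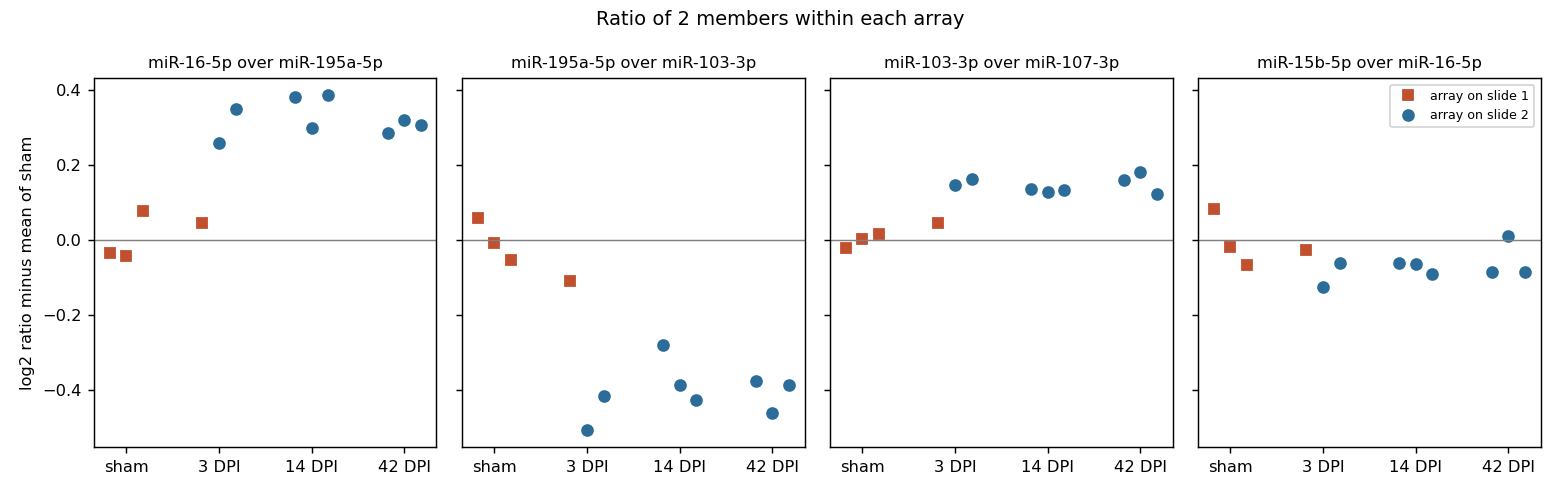
The log2 ratio of 2 members within each array, minus the mean of the 3 sham arrays, is plotted by group for 3 pairs split by slide and for miR-15b-5p over miR-16-5p, which is not; squares are arrays on slide 1 and circles those on slide 2. In the first 3 panels replicate 1 of 3 DPI, on slide 1, is at 0.05, -0.11, and 0.05, nearer to 0 than every array of slide 2. It is among the sham arrays for miR-16-5p over miR-195a-5p, and outside their range, on the side of the injury arrays, in the other two.

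To test these ratios in a fit over all miRNAs, each array was scaled to 1 member instead, also chosen after the values had been seen. Scaled to miR-16-5p, miR-195a-5p differed from sham by -0.36 at 14 DPI (limma, adjusted p = 0.059) and by -0.30 at 42 DPI (adjusted p = 0.056), and 0 members were called, against 13.0% and 32.4% of all miRNAs. Scaled to miR-103-3p, it differed by -0.36 at 14 DPI (limma, adjusted p = 0.11) and by -0.41 at 42 DPI (adjusted p = 0.039), the only call among the members in these comparisons with sham, where 11.8% and 26.6% of all miRNAs were called. With slide as a block in the same fits the differences at 42 DPI were -0.05 and -0.06, with adjusted p of 0.83 and 0.82; the block rests on the single array of 3 DPI that links the slides. Under the main scaling, the 2 probes of miR-195a-5p differed from sham by 0.00 and -0.22 at 42 DPI. How far its ratios and its call depend on the probe was not tested. Slide also went with brightness, with a 75th percentile of 217 to 401 on slide 1 and 451 to 2936 on slide 2. Injury, slide, and brightness cannot be told apart in these ratios.

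Over the 12 arrays the log2 scaled signals of the members correlated with each other with Pearson's r from 0.71 to 0.98 (median 0.90 over 28 pairs), against a median of 0.11 over all pairs of the 230 miRNAs. These values are a description, since all miRNAs of an array share its scaling and slide. Replicate 1 of 14 DPI, the lowest array for all 8 members (median deviation -0.71), weighs on every r between members. How the correlations stand without it was not tested, nor was shared signal between probes of close members. Outside the family, the miRNAs most like miR-16-5p were let-7b-5p, let-7c-5p, and miR-19b-3p, each with r = 0.97, out of 222 compared. Those most like miR-103-3p were let-7c-5p with r = 0.95 and miR-24-3p and miR-301a-3p with r = 0.94. The SD over the 12 arrays was 0.29 as the median of the members and 0.49 as the median of the 230 miRNAs.

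The relatives of the members were near the limit of the array. Of the other arms of the members' hairpins, the strands usually degraded, 9 of the 10 listed were on the array and 0 were detected on any array. The 4 other mouse miRNAs with a member's seed (miR-195b, miR-6342, miR-6353, and miR-6419) were detected on 0 arrays. Of 9 listed miRNAs of the X-linked cluster around miR-322, miR-503-5p was detected on 1 array, of 42 DPI, and the other 8 on none. Of the 4 red cell miRNAs listed, since red cells are rich in miR-16 and miR-15b, miR-451a was detected on 0 sham arrays and on 2 of 3 arrays in each injury group, while its mean log2 scaled signal was -4.37 in sham, -4.09 at 3 DPI, and -4.72 at 14 DPI, and lay between those of sham and 14 DPI at 42 DPI, against a floor of -5.06. The only one of the 4 that was tested, miR-486a-5p, was called lower at 42 DPI (by -0.68, limma, adjusted p = 0.022), where 34.2% of all miRNAs were called. Its detection went the other way, from 0 sham arrays to 3 of 3 arrays of 42 DPI. Its mean there, -5.06, was at the floor, so the size of this difference is set by the floor. The log2 of the red cell list's summed scaled signal ran from -2.79 to -2.45 in sham and from -2.72 to -2.09 at 3 DPI. On the arrays of 14 DPI it ran from -2.98 to -2.79, and on those of 42 DPI from -3.06 to -2.78. The 4 miRNAs with a member's seed, all at the floor, gave -3.06 by the same measure. Of the red cell list, miR-144-3p and miR-144-5p were at the floor on every array, so its low values are largely set by the floor. The part of the red cell miRNAs in the members' values was not tested.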

How the data were processed

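The authors deposited Agilent Feature Extraction 10.7.1.1 output for each of the 12 arrays (per the labels), with a background-corrected linear intensity per spot and no normalization across arrays. The authors' deposited table of processed log2 values served only as an alternative; its scaling and centering are not given in the sources used here, each column has a median of -3.32, and within an array it ranks the detected miRNAs much as the probe sums do (rank correlation 0.940 to 0.986).

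Without control and outlier spots, 10 to 15 spots were averaged for each probe of a member, and its 2 probes were summed. The sums were scaled by the 75th percentile of the array, taken over 230 miRNAs detected on every array, floored at -5.06 on the log2 scale, and log transformed. Detection required a probe with over 0.5 of its spots well above background. The 486 miRNAs tested were those detected on every array in 1 group or more. limma 3.58.1 (R 4.3.3) was fitted to the 12 arrays together with no covariates, and p-values were two-sided and adjusted by Benjamini-Hochberg. Python 3.11.15 was used for the rest. The fit was also run on simulated data with independent spread on each array. Those data had no deviations shared by an array and no slides, so they cannot show how the fit behaves here. No spot was saturated. The files name no genome build; all 8 members matched the RefSeq table by name.

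The members, lists, and tests were chosen with earlier results of these data known. The floor is the median over arrays of percentile 1 of the detected signal, a rule picked after several had been tried because it gave the floor and counts of earlier processing; with floors from -6 to -3.5 the miRNAs called at 42 DPI went from 203 to 59, and 0 members were called at any. All members lie above it and above each floor tried, so no floor could move their own values. Named beside the members are miRNAs with the same seed, opposite arms, the miR-322 cluster, and the 3 miRNAs best correlated with miR-16-5p and with miR-103-3p. Same-numbered sham and 14 DPI arrays deviated together (correlations across miRNAs 0.83, 0.44, and 0.75). The labels give no pairing, and a pairing here would rest on these values alone. Deviations from a mean of 3 arrays are tied to each other, so the correlations are not independent. In every other comparison their signs were mixed, as for 3 DPI against sham (-0.445, 0.574, and -0.729). Ratios between members and scaling to 1 member were added after seeing the data. The alternatives are given with their effects in the closing section. The qRT-PCR and later experiments of the study were not analysed here.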

Additional observations from a re-analysis of the deposited data

How the results depend on the processing

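With 3 arrays per group, dim sham arrays, and a slide that parts sham from 14 and 42 DPI, only sizeable changes could be seen. The count of members called, 0 in all 6 comparisons, moved under 3 alternatives: no scaling (8 members for 14 DPI and for 42 DPI against sham, 8 for 42 DPI against 14 DPI, and 8 for 42 DPI against 3 DPI), normexp (2, 2, and 1 for 14 DPI against sham, 42 DPI against sham, and 42 DPI against 3 DPI), and scaling to miR-103-3p (1 for 42 DPI against sham). It stayed at 0 under every other alternative run, and leaving out 1 array gave 0 to 0. These were the brightest probe, the total signal of the scanner software, quantile normalization, the 75th percentile over all miRNAs, 0.5 times the floor, both other filters on detection, a separate fit for each comparison, blocks for slide or replicate number, slide 1 alone, the methods' t-test before and after adjustment, scaling to miR-16-5p, and the deposited values. The change of floor and both filters on detection could not move a member's value, since all members lie above the floor and were detected on all arrays. They could alter only the estimate of spread and the adjustment. With the replicate number as a block, for a possible pairing of sham with 14 DPI, 0 members were called and no other call among the members changed. The miRNAs called at 14 DPI went from 18 to 4. Over all miRNAs the calls at 14 and 42 DPI were 18 (8 higher) and 166 (66 higher). They became 319 (319 higher) and 408 (408 higher) without scaling, 370 (18 higher) and 429 (41 higher) with normexp, 38 (27 higher) and 236 (154 higher) with quantile normalization, 143 (98 higher) and 249 (143 higher) in the deposited table, 57 (50 higher) and 129 (62 higher) scaled to miR-103-3p, and 63 (55 higher) and 157 (86 higher) scaled to miR-16-5p. The 75th percentile over all miRNAs gave 21 (10 higher) and 223 (152 higher). No detection filter gave 1 and 18, only miRNAs detected on all arrays 9 and 118, the total signal 30 and 177, the brightest probe 12 and 141, separate fits 0 and 262, separate fits with the replicate block 0 and 128, and slide as a block 0 and 0. Over all miRNAs, the calls at 14 DPI were 2, 1, and 20 without replicate 1, 2, or 3 of sham and 162, 2, and 2 without those of 14 DPI, and the calls at 42 DPI were 54, 63, and 143 without those of sham and 46, 98, and 81 without those of 42 DPI. The calls for 42 DPI against 3 DPI went from 186 to 94, 199, and 38 without replicate 1, 2, or 3 of 3 DPI and to 0, 56, and 0 without those of 42 DPI. The methods' t-test gave 46 and 270 before and 0 and 207 after adjustment. At 3 DPI the deposited table called 95 miRNAs in place of 0, quantile normalization 3, and the methods' t-test before adjustment 3.

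The members' differences from sham lie close to 0, so their signs turned often; other than without scaling at 14 and 42 DPI and for miR-15b-5p with normexp at 42 DPI, none of the turned values was called, and the cause was not tested. With the 75th percentile over all miRNAs the turned differences were -0.055 for miR-15a at 3 DPI, and 0.21 for miR-15a, 0.15 for miR-15b, 0.23 for miR-16, 0.045 for miR-497a, 0.23 for miR-103 and 0.10 for miR-107 at 14 DPI, and 0.61 for miR-195a, 0.70 for miR-497a and 0.69 for miR-322 at 42 DPI. With the total signal they were 0.060 for miR-15b, 0.13 for miR-16, 0.11 for miR-497a and 0.14 for miR-107 at 3 DPI, and 0.15 for miR-15a, 0.093 for miR-15b, 0.17 for miR-16, 0.17 for miR-103 and 0.039 for miR-107 at 14 DPI, and 0.093 for miR-195a, 0.19 for miR-497a and 0.18 for miR-322 at 42 DPI. Without scaling they were 0.70 for miR-15b, 0.77 for miR-16, 0.55 for miR-195a, 0.75 for miR-497a, 0.50 for miR-322 and 0.78 for miR-107 at 3 DPI, and 1.65 for miR-15a, 1.59 for miR-15b, 1.66 for miR-16, 1.31 for miR-195a, 1.48 for miR-497a, 1.35 for miR-322, 1.67 for miR-103 and 1.54 for miR-107 at 14 DPI, and 2.65 for miR-195a, 2.75 for miR-497a and 2.74 for miR-322 at 42 DPI. Fitted with slide as a block, they were -0.053 for miR-15a, 0.12 for miR-15b, 0.15 for miR-16, 0.099 for miR-195a, 0.014 for miR-322 and 0.16 for miR-107 at 3 DPI, and 0.19 for miR-15b, 0.19 for miR-16, 0.094 for miR-195a, 0.089 for miR-322, 0.11 for miR-103 and 0.080 for miR-107 at 14 DPI, and 0.34 for miR-195a and 0.37 for miR-322 at 42 DPI. Within slide 1, which holds 1 array of 3 DPI, they were -0.053 for miR-15a, 0.12 for miR-15b, 0.15 for miR-16, 0.099 for miR-195a, 0.014 for miR-322 and 0.16 for miR-107 at 3 DPI. Under normexp they were 0.12 for miR-107 at 3 DPI, and 0.19 for miR-103 and 0.056 for miR-107 at 14 DPI, and -0.54 for miR-15b at 42 DPI. Quantile normalization gave 0.045 for miR-107 at 3 DPI, and 0.072 for miR-15b and 0.015 for miR-103 at 14 DPI, and 0.41 for miR-322 at 42 DPI. The deposited table gave 0.069 for miR-107 at 3 DPI, and 0.060 for miR-15b and 0.10 for miR-103 at 14 DPI, and 0.38 for miR-322 at 42 DPI. The brightest probe gave 0.0026 for miR-497a at 42 DPI. Scaled to miR-16-5p, they were 0.0053 for miR-107 at 3 DPI, and 0.0073 for miR-103 at 14 DPI, and -0.053 for miR-15b and -0.052 for miR-107 at 42 DPI. Scaled to miR-103-3p, they were -0.087 for miR-15a at 3 DPI, and -0.0062 for miR-15a, -0.16 for miR-15b, -0.10 for miR-16 and -0.15 for miR-107 at 42 DPI. Adding slide as a block to the scaling to miR-16-5p gave -0.20 for miR-15a and 0.015 for miR-107 at 3 DPI, and -0.26 for miR-15a and -0.038 for miR-107 at 42 DPI. Adding it to the scaling to miR-103-3p gave -0.26 for miR-15a at 3 DPI, and 0.081 for miR-15b and 0.086 for miR-16 at 14 DPI, and -0.27 for miR-15a, -0.0092 for miR-16 and -0.047 for miR-107 at 42 DPI. For 42 DPI against 14 DPI the sign turned in 23 of 212 values of a member under an alternative, for 42 DPI against 3 DPI in 22, and for 14 DPI against 3 DPI in 52.

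Without 1 array in turn, the members' differences from sham at 3 DPI ran from -0.10 to 0.097 for miR-15a-5p, -0.20 to 0.051 for miR-15b-5p, -0.16 to 0.13 for miR-16-5p, -0.41 to -0.027 for miR-195a-5p, -0.16 to 0.072 for miR-497a-5p, -0.44 to -0.15 for miR-322-5p, -0.048 to 0.28 for miR-103-3p and -0.16 to 0.18 for miR-107-3p. The ranges at 14 DPI were -0.27 to 0.21 for miR-15a-5p, -0.28 to 0.12 for miR-15b-5p, -0.22 to 0.19 for miR-16-5p, -0.56 to -0.15 for miR-195a-5p, -0.42 to 0.0039 for miR-497a-5p, -0.54 to -0.080 for miR-322-5p, -0.23 to 0.26 for miR-103-3p and -0.36 to 0.12 for miR-107-3p, the highest of each without replicate 1 of 14 DPI. Those at 42 DPI were 0.11 to 0.31 for miR-15a-5p, -0.013 to 0.14 for miR-15b-5p, -0.0019 to 0.22 for miR-16-5p, -0.29 to -0.083 for miR-195a-5p, -0.15 to -0.019 for miR-497a-5p, -0.22 to 0.018 for miR-322-5p, 0.087 to 0.33 for miR-103-3p and -0.058 to 0.17 for miR-107-3p.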
